A study of Mus musculus with 93 samples.

Results

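Eml5, Gal3st4, Havcr2, Olfml3, Pmepa1, Rtn4rl1, Sparc, Spint1 and Spsb1 are 9 of the 14181 genes measured here in sorted mouse macrophages and their progenitors. They were chosen by their measured RNA levels, which were higher in brain macrophages than in those of other tissues at both ends of the time course, at E10.25 to E10.5 and again at E14.5 to P21. In these data the 9 genes were already detected together in every brain macrophage library of E10.25 and E10.5. Within brain most had their highest level at P21, but no member passed the test of age there. The share of all genes highest at P21 was not counted. The brain difference that chose them is given below as a description only, and tests are kept to libraries or contrasts that the choice did not use.

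The data are 93 bulk libraries of polyadenylated RNA, prepared by SMART-Seq2 (a method that amplifies whole transcripts from few cells) and divided into 46 groups. EMP are erythro-myeloid progenitors, Mac are macrophages, and pMac are the stage between them. The 6 EMP libraries are from yolk sac (E9 and E10.25) and liver (E10.25), and the 13 pMac libraries come from the brain, caudal and yolk sac groups of E9.5 and, at E10.25, from yolk sac, brain, liver and limbs. The 74 Mac libraries cover brain (17 libraries) and liver at every age from E10.25 to P21, the yolk sac (E10.25, E10.5), limbs at E10.25 to E12.5, and kidney, lung and skin from E14.5. The labels name the cell type, tissue and age of each library and no strain, genotype, sex or sorting marker. The series is described as having both technical and biological replicates without telling them apart, so each p-value here reflects variation from library to library that may be technical.

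Values are gene levels on a log2 scale. A level of 5.37 is the floor applied to all libraries, and a gene at that value was not detected. No counts were given, so the sequencing depth and counting error of each value are unknown. Between 14431 and 25185 transcripts lay above the floor per library (median 22650), and 9 libraries, all of kidney, liver or lung between P2 and P21, had fewer than 18000.

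Macrophages of the brain, the microglia and the macrophages of the brain's borders, descend from yolk sac progenitors that enter the embryo early. Microglia need TGF-beta signalling to keep their identity, and Pmepa1 is a TGF-beta target gene. The listed genes do not form a pathway. Sparc (a collagen-binding matrix glycoprotein) and Olfml3 (a secreted olfactomedin-domain protein known as a microglia marker) are secreted, and Havcr2 (an inhibitory immune receptor of the Tim family), Rtn4rl1 (a Nogo receptor relative anchored in the membrane) and Spint1 (a Kunitz-type inhibitor of the protease St14 and of the activator of hepatocyte growth factor) lie at the cell surface. Pmepa1 binds SMAD proteins and dampens TGF-beta signalling, Spsb1 is a SOCS box adaptor of a ubiquitin ligase, Gal3st4 adds sulfate to galactose in the Golgi, and Eml5 is a microtubule-associated protein of the EMAP-like family.

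In the mm10 annotation all 9 are protein-coding genes. Sparc (ENSMUSG00000018593.13) lies at chr11:55394500-55423183 on the minus strand, with 5 transcripts in the table, and Olfml3 (ENSMUSG00000027848.12) at chr3:103722222-103738001, minus strand, with 2. Havcr2 (ENSMUSG00000020399.14) lies at chr11:46454935-46481255 on the plus strand with 2 transcripts, and Rtn4rl1 (ENSMUSG00000045287.6) at chr11:75193783-75267769, plus strand, with 1. Spint1 (ENSMUSG00000027315.13) lies at chr2:119237362-119249527 on the plus strand with 4 transcripts, and Pmepa1 (ENSMUSG00000038400.15) at chr2:173224458-173276533, minus strand, with 2. Spsb1 (ENSMUSG00000039911.13) lies at chr4:149896283-149955043 on the minus strand with 3 transcripts, Gal3st4 (ENSMUSG00000075593.10) at chr5:138264921-138272840, minus strand, with 4, and Eml5 (ENSMUSG00000051166.10) at chr12:98786805-98901484, minus strand, with 1. Eml5 overlaps Zc3h14 on the opposite strand, Gal3st4 overlaps the protein-coding Gm43720 on its own strand and the antisense gene 6330418K02Rik, and Spsb1 overlaps the antisense gene Gm13070. Use of strand in counting was also not given in the sources used here, so the values of these 3 genes could include reads of their neighbours.

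Promoters of 6 of the 9 genes were found in the RefSeq table (GRCm38.p6), each from 250 bases before to 50 bases after the transcript start. Of these, 4 are printed, because Havcr2, Spint1 and Spsb1 were higher in skin than in the other non-brain tissues as well as high in brain, while Sparc was the member with the highest levels in brain. They are written 5′ to 3′ on the strand of the gene, which is plus for Havcr2 (chr11:46454681-46454980) and Spint1 (chr2:119237110-119237409) and minus for Spsb1 (chr4:149954957-149955256) and Sparc (chr11:55420031-55420330). Capitals mark matches on either strand to GAGGAA (the ETS core of the PU.1 type), CAGAC (SMAD type) and TGANTCA (AP-1), none of which overlap here.
Havcr2: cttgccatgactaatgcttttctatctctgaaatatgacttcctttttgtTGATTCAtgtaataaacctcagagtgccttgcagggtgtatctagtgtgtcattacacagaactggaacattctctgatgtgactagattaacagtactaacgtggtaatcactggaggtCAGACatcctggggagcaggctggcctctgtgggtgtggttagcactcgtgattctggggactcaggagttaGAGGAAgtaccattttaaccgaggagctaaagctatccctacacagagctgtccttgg
Spint1: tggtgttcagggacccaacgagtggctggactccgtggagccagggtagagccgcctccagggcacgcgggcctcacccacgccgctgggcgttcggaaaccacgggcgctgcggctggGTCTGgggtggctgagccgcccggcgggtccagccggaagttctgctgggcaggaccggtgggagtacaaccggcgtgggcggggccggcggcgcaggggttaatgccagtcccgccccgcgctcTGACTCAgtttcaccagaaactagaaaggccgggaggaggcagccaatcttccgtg
Spsb1: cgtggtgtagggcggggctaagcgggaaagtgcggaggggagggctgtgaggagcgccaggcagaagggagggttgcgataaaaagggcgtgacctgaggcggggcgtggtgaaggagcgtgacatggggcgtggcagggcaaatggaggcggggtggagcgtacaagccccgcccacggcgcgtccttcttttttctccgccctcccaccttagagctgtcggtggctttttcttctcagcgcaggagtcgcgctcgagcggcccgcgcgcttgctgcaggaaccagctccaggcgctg
Sparc: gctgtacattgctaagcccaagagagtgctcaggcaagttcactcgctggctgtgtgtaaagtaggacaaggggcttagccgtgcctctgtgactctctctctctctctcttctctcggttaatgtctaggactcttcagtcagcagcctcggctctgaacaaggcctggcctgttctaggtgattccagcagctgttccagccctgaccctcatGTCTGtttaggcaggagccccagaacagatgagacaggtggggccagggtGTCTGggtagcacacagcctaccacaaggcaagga

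The promoters of Havcr2 and Spint1 both hold an AP-1 match and a SMAD-type match, that of Sparc holds 2 SMAD-type matches, and that of Spsb1 holds none of the 3 motifs. AP-1 was matched in 2 of the 6 promoters and in 7.81% of the 32851 promoters of the table, the SMAD type in 3 of 6 against 49.59%, and the PU.1-type core in 1 of 6 (Havcr2) against 28.28%. No match was found in the 6 promoters for the interferon regulatory factor motif (3.44% of all promoters), the MEF2 motif (3.69%) or TATAAA (13.62%), and CCAAT was matched in that of Spint1 (37.41% of all). A match is a string of letters in a window and not a measured site.

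One library stands apart and touches several results. Brain Mac E12.5 replicate 1 had a mean level of 8.69 over 12 general macrophage genes, against 12.34 in replicate 2, and of 7.68 over 15 microglia genes, against 11.28. Its mean over 7 neuron genes was 10.68, and that of replicate 2 was 9.35. The 4 limbs and liver libraries of E12.5 had macrophage means of 11.82 to 13.15 and neuron means of 5.39 to 5.67. In the other 15 brain Mac libraries the macrophage mean was 11.24 to 14.71 and the neuron mean 5.44 to 9.30. Results of members that rest on it are therefore given with and without replicate 1.

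**Figure D1:**
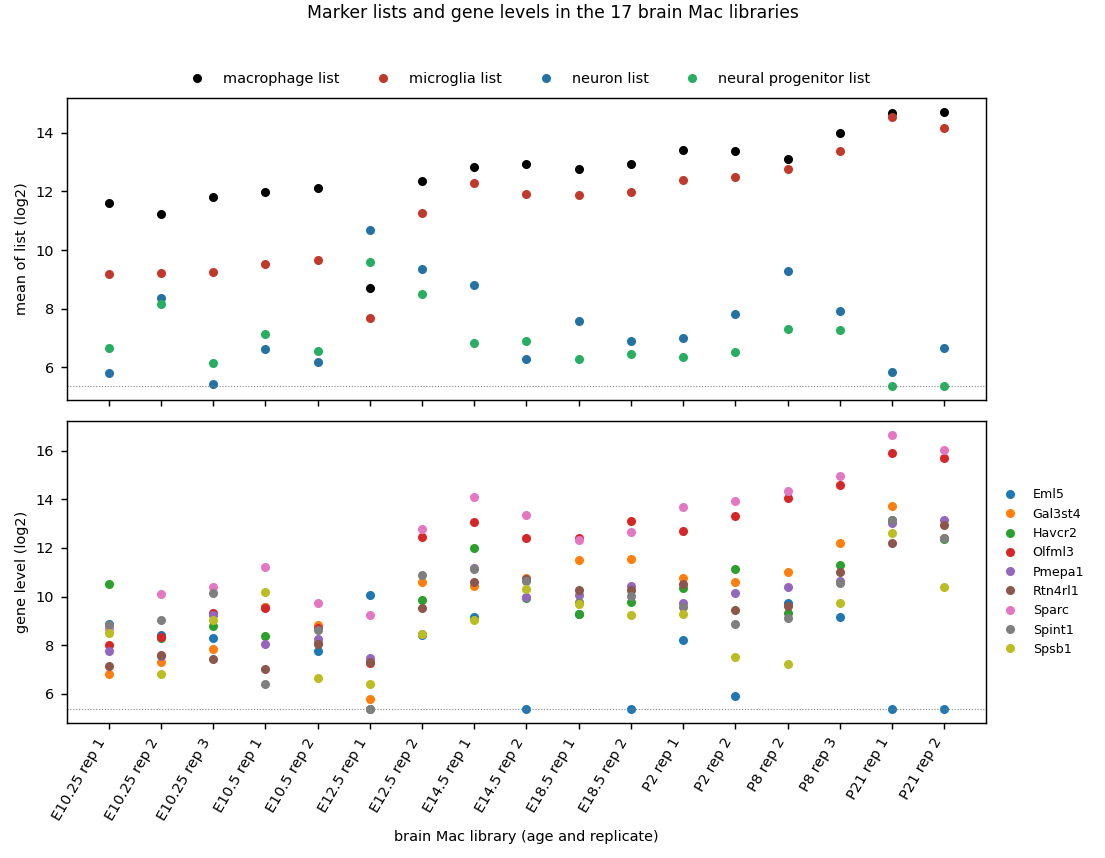
The 17 brain Mac libraries in order of age, with the mean log2 level of 4 marker gene lists (top) and the log2 level of each of the 9 genes (bottom), 1 point per library and the floor as a dotted line. In E12.5 replicate 1 the neuron list (10.68) lies above the macrophage list (8.69) and Havcr2 and Spint1 are at the floor, and at P21 Eml5 is at the floor while the other genes lie at 10.37 or above.

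At E10.25 and E10.5 all 9 genes were detected in each of the 5 brain Mac libraries, and 0 to 4 of them (median 2) in the 15 libraries of limbs, liver and yolk sac. These levels chose the genes and are a description. Sparc had 8.67, 10.10 and 10.39 in the brain libraries of E10.25 and 11.23 and 9.72 in those of E10.5, and 5.37 to 9.40 (median 5.69) elsewhere. Olfml3 had 7.99, 8.32 and 9.34, then 9.52 and 8.69, and was at the floor in 11 of the 15 other libraries, with 9.09 and 9.18 in yolk sac replicates 2 and 3 of E10.25. Thus Sparc and Olfml3 were each matched or passed by single libraries outside the brain, which overlapped the brain range.

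Rtn4rl1 was the only member detected in none of the 15 other libraries, and in brain it had 7.15, 7.60 and 7.42 at E10.25 and 7.01 and 8.05 at E10.5. Havcr2 had 10.53, 8.29 and 8.77 in brain at E10.25 and 8.40 and 8.09 at E10.5, and at most 6.85 elsewhere. Spint1 had the widest range among the early brain libraries, with 8.81, 9.03 and 10.14 at E10.25 and 6.41 and 8.62 at E10.5, and 1 liver library reached 7.77. The ranges of Rtn4rl1 and Havcr2 did not overlap those of the other tissues, and that of Spint1 did. These ranges come from the libraries that chose the genes, and the share of all genes without overlap was not counted.

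Among the intracellular members, Spsb1 had brain levels of 8.49, 6.80 and 9.03 at E10.25 and 10.21 and 6.66 at E10.5, and it was detected in 2 of the 15 other libraries, at no more than 6.59. Pmepa1 had 7.77, 7.54 and 9.22, then 8.04 and 8.27, and was at most 7.62 elsewhere, in liver. Gal3st4 had 6.82, 7.31 and 7.84 at E10.25 and 9.57 and 8.81 at E10.5, and at most 7.25 elsewhere, in yolk sac. Eml5 had 8.88, 8.43 and 8.31, then 9.57 and 7.76, and was otherwise detected in 1 liver and both E10.25 limbs libraries, at 7.99 and 7.48 in the latter. Outside the brain, then, each of these 4 genes was seen in a minority of early libraries, and all but Spsb1 overlapped the brain range.

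In an additive fit of age and tissue made for the contrasts of the choice, the early brain difference ran from 2.08 (Rtn4rl1) to 3.54 (Sparc) on the log2 scale. Of 11295 genes tested in that contrast, 0.115% were called (0.106% higher in brain), where called means a Benjamini-Hochberg adjusted p under 0.05 in limma and a difference of at least 1. The late difference, brain against kidney, liver, lung and skin, ran from 1.40 (Eml5) to 6.99 (Sparc), in a contrast that called 8.6% of genes (5.82% higher). Going by the larger adjusted p of the early and late contrasts, the members nearest the threshold were Olfml3, Pmepa1 and Eml5. Olfml3 and Pmepa1 lay near it in the early contrast and Eml5 in the late one. Their early differences were 2.99, 2.28 and 2.70 and their late ones 6.4, 2.57 and 1.40. Just outside lay Map1b (3.01 early, 4.67 late), Tubb3 (2.49 and 3.58) and Lhfpl2 (2.13 and 3.13), which missed only in the early contrast. Map1b and Tubb3 are neuron genes. Beside these values, the neuron list had means of 5.44 to 8.38 in the 5 early brain libraries, and the part of neuronal RNA in the members' differences was not tested.

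**Figure D2:**
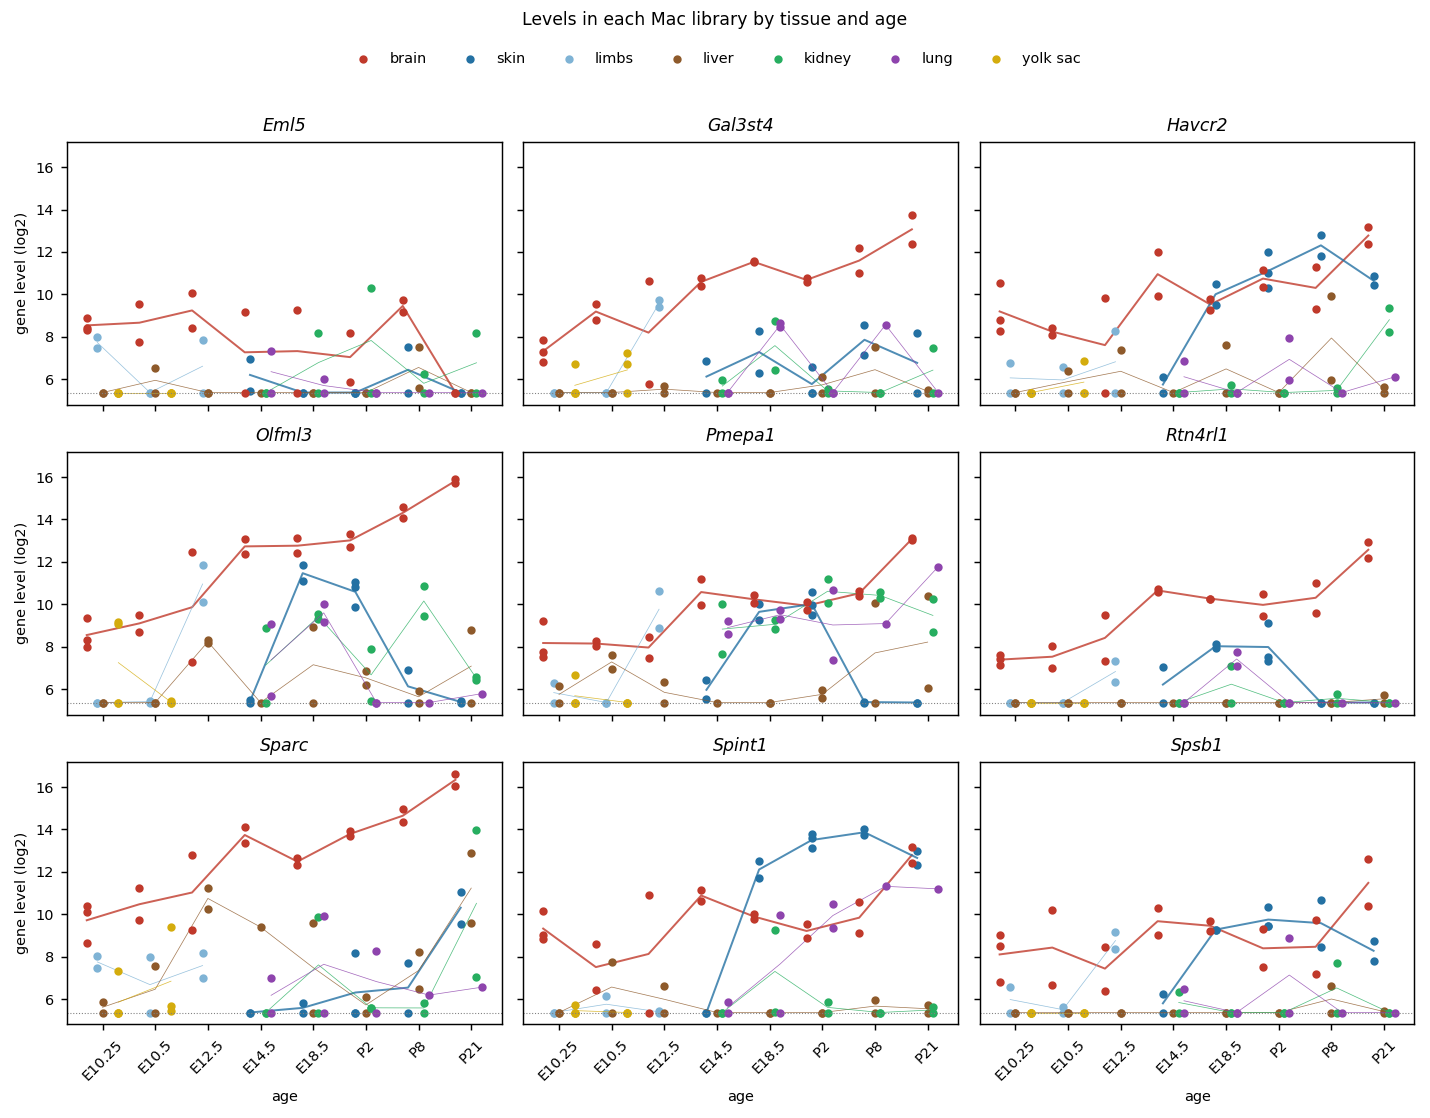
Log2 level of each of the 9 genes in the 74 Mac libraries by age, 1 point per library, coloured by tissue, with lines through the mean of each tissue and age and the floor of 5.37 as a dotted line. Brain lies above the other tissues for Gal3st4, Olfml3, Rtn4rl1 and Sparc at most ages, whereas skin reaches brain levels for Havcr2, Spint1 and Spsb1 from E18.5.

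From E14.5 to P21 all 9 genes were detected in 6 of 10 brain Mac libraries and 8 in the other 4, and the gene not detected was Eml5 each time. Across these 10 libraries Sparc ranged from 12.31 to 16.64 (median 14.01) and Olfml3 from 12.39 to 15.92 (median 13.22). Gal3st4 ranged from 10.41 to 13.74 (median 11.25) in brain and Rtn4rl1 from 9.45 to 12.95 (median 10.55). In the 38 libraries of the other tissues Gal3st4 reached at most 8.75 and Rtn4rl1 9.14, both below the lowest brain library. Olfml3 did not overlap either, with at most 11.83 outside brain, in skin at E18.5. The late levels also chose the genes, and overlap was not counted over all genes.

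The other 6 genes overlapped between brain and the remaining tissues in this period. Sparc reached 13.99 in kidney P21 replicate 1 and 12.88 in liver P21 replicate 2, within the brain range. In these 2 libraries the mean of 7 endothelial genes was 9.84 and 9.81, against 5.71 and 6.62 in their replicates, and the part of endothelial RNA in Sparc was not tested. Havcr2 in brain ranged from 9.28 to 13.17 (median 10.74), Spint1 from 8.87 to 13.16 (median 10.30) and Spsb1 from 7.21 to 12.59 (median 9.5), and skin libraries lay within these ranges or, for Spint1, above. Pmepa1 ranged from 9.74 to 13.13 (median 10.41) in brain and was detected in 31 of the 38 other libraries, where it reached 11.77 in lung at P21. It is the member with the widest presence outside the brain.

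Eml5 was the exception in brain. Its libraries had 9.17 and 5.37 at E14.5, 9.28 and 5.37 at E18.5, 8.19 and 5.89 at P2, 9.74 and 9.17 at P8, and 5.37 and 5.37 at P21. One library of each age before P8 was thus at or near the floor and the other well above it, both were high at P8, and neither was detected at P21. The neuron list in the same order was 8.81 and 6.27 at E14.5, 7.58 and 6.91 at E18.5, 6.99 and 7.84 at P2, 9.30 and 7.91 at P8, and 5.84 and 6.66 at P21. The library with the higher Eml5 level also had the higher neuron mean at E14.5, E18.5 and P8, and the lower one at P2. The part of neuronal RNA in the Eml5 values was not tested.

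The E12.5 libraries took no part in the choice of genes, and their levels were compared between brain and limbs and liver. The spread in this test was estimated together with the brain, limbs and liver libraries of E10.25 and E10.5, which did take part. Eml5 and Rtn4rl1 passed the test, with higher levels in brain, and the other 7 genes did not. Outside brain too few E12.5 libraries held Eml5 or Rtn4rl1 at the level that the filter on low values requires. Both genes passed that filter only with brain libraries counted. Their calls thus describe those brain levels and are no separate support for a difference. Eml5 had 10.06 and 8.42 in the brain replicates, 7.86 and 5.37 in limbs and 5.37 and 5.37 in liver. The groups did not overlap, but the share of all genes without overlap was not counted, and the highest value was that of brain replicate 1. The difference was 3.25 ± 0.83 (log2, standard error; adjusted p = 0.0199, limma). Rtn4rl1 had 7.32 and 9.52 in brain, 6.33 and 7.34 in limbs and 5.37 and 5.37 in liver, and brain replicate 1 lay just under limbs replicate 2. Its difference was 2.32 ± 0.60 (adjusted p = 0.0212). With only E12.5 libraries in the limma fit neither gene passed (adjusted p = 0.127 for Eml5 and 0.185 for Rtn4rl1). The 2 of 9 members called higher stand beside 5.31% of the 11874 genes tested (8.52% called in either direction). The median difference of all genes was -0.34, which quantile normalization brought to -0.03.

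Neither call held without brain replicate 1, where Eml5 differed by 2.43 (adjusted p = 0.826) and Rtn4rl1 by 3.41 (adjusted p = 0.203), with the lone brain library assumed to vary like the other groups. The Eml5 call also ended without limbs replicate 2 or either liver library (adjusted p = 0.0542 to 0.0619). That of Rtn4rl1 ended without brain replicate 2 (1.22, adjusted p = 0.449), limbs replicate 1 or either liver library (adjusted p = 0.0545 to 0.0664). Beside them, 7 of 7 neuron genes were higher in brain at E12.5 (Tubb3 by 6.59, Map2 by 5.73), as were 5 of 6 neural progenitor genes tested (Fabp7 by 4.14). Of 5 border macrophage genes tested 4 were lower (Mrc1, -2.53). In the reference, the liver libraries had erythroid means of 14.25 and 13.38 and endothelial means of 9.43 and 9.81, against at most 7.50 and 6.23 in brain. The part of these cells' RNA in the 2 calls was not tested. Without replicate 1 the Eml5 difference was smaller and the Rtn4rl1 difference larger than with it.

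The 2 brain replicates of E12.5 lay far apart for most other members. Spint1 had 5.37 and 10.89 in the brain replicates and at most 6.62 in limbs and liver, a difference of 2.43 ± 1.14 that did not pass (adjusted p = 0.236) and was 5.19 without replicate 1 (adjusted p = 0.195). Havcr2 had 5.37 and 9.84 in brain and 5.37 and 8.27 in limbs, with a difference of 1.01 ± 1.14 against limbs and liver (adjusted p = 0.707). Without replicate 1 the Havcr2 difference was 3.24 (adjusted p = 0.704). For Spint1 and Havcr2, replicate 2 lay above every limbs and liver library and replicate 1 at the floor.

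Sparc had 9.26 and 12.80 in brain, 8.17 and 7.0 in limbs and 10.27 and 11.22 in liver, so liver lay between the brain replicates. Its difference against both tissues was 1.86 ± 1.05 (adjusted p = 0.35). With limbs alone as the reference, a choice made after seeing the data, it was 3.44 (adjusted p = 0.0901), and with liver alone 0.28 (adjusted p = 0.937). Without brain replicate 1 it was 3.63 against both (adjusted p = 0.55).

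Limbs of E12.5 carried 4 of the genes at levels within or above the brain range. Olfml3 had 11.83 and 10.09 in limbs and 7.28 and 12.45 in brain, and Gal3st4 9.75 and 9.40 in limbs and 5.79 and 10.61 in brain. Pmepa1 had 8.89 and 10.65 in limbs against 7.48 and 8.45 in brain, and Spsb1 8.37 and 9.16 against 6.41 and 8.47. In limbs at E10.25 and E10.5 none of the 4 had exceeded 6.59. Against limbs and liver together the differences were 0.27 for Olfml3, 0.64 for Gal3st4, 0.15 for Pmepa1 and 0.37 for Spsb1. Without brain replicate 1 they were 2.85, 3.06, 0.64 and 1.41 in the same order, and none passed. Against limbs alone their differences had a negative sign, from -1.81 (Pmepa1, adjusted p = 0.258) to -1.10 (Olfml3, adjusted p = 0.677), and none passed the test.

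**Figure D3:**
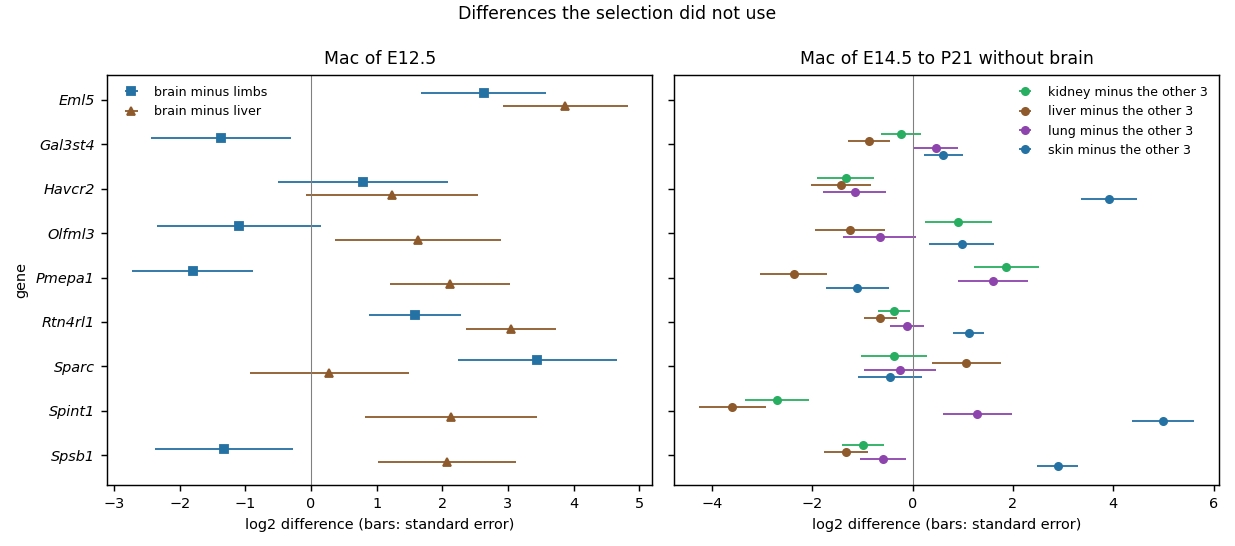
Log2 differences with standard errors for E12.5 Mac of brain against limbs or liver alone (left) and for each of kidney, liver, lung and skin against the mean of the other 3 at E14.5 to P21 (right), with genes that were not tested left out. Havcr2, Spint1 and Spsb1 in skin differ by 2.89 to 5.0, and at E12.5 Gal3st4, Olfml3, Pmepa1 and Spsb1 lie below 0 against limbs.

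The stages before macrophages also took no part in the choice. Sparc was detected in all 6 EMP libraries (7.08 to 10.36, median 8.67) and in 12 of 13 pMac libraries (5.37 to 9.36, median 7.86). Eml5 was detected in 5 EMP libraries, at up to 8.18, and in 10 pMac libraries, at up to 8.41. Olfml3, Pmepa1, Spint1 and Spsb1 were not detected in any EMP library. Rtn4rl1 was not detected in any of the 5 brain pMac libraries, and elsewhere it was at most 5.72, in 1 EMP library. EMP and pMac libraries thus held Sparc and Eml5 widely, and each of the other genes in at most 7 of the 13 pMac libraries.

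Between EMP and pMac, 3 members could be tested (Eml5, Havcr2 and Sparc) and none passed, with differences of -0.44 ± 0.61, 0.87 ± 0.74 and -0.85 ± 0.64, in a comparison that called 3.81% of 10469 genes. In pMac of E9.5, brain against caudal embryo and yolk sac, 4 members could be tested and their differences lay between -0.27 (Gal3st4) and 0.36 (Eml5). No gene at all was called there by limma (0% of 10959, 153 at an unadjusted p under 0.05). Sparc illustrates the overlap, with 7.28, 7.79, 7.87 and 9.36 in brain, 7.67, 7.86 and 8.61 in the caudal embryo and 8.51 and 8.41 in yolk sac. One brain pMac library, E9.5 replicate 4, held Gal3st4, Havcr2, Olfml3 and Pmepa1 at 8.30, 8.16, 8.37 and 7.92, all within the range of the early brain Mac libraries. It had 6 members detected, and the brain pMac library of E10.25 had 7. Over all brain pMac libraries the highest levels of Spint1 and Spsb1 were 7.74 and 6.68, within that range as well. Outside the brain, pMac reached 9.28 for Havcr2 and 7.57 for Gal3st4, also within that range. For Olfml3 and Pmepa1 they reached 7.79 and 6.61, below it.

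Between brain pMac of E9.5 and brain Mac of E12.5, Rtn4rl1 was the only member called, with higher levels in Mac. It was at 5.37 in all 4 pMac libraries and at 7.32 and 9.52 in the Mac libraries, a difference of 3.05 ± 0.54 (adjusted p = 0.00228) whose size depends on the floor. It passed the filter on low values only through these Mac libraries, so the call describes their levels and is no separate support for a rise. The comparison called 10.8% of 11491 genes (7.96% higher). Olfml3 (3.53 ± 1.29, adjusted p = 0.113), Sparc (2.95 ± 0.99, adjusted p = 0.0814) and Spsb1 (1.90 ± 0.56, adjusted p = 0.0506) did not pass, and Spint1 was not tested. Without brain Mac replicate 1 the difference was 6.12 for Olfml3 (adjusted p = 0.106) and 4.72 for Sparc (adjusted p = 0.225), and 7 genes in the table were called in place of 1245. Without either of the brain Mac libraries Rtn4rl1 no longer passed the filter on low values, and no member was called. Without brain pMac replicate 4, in which 6 members were detected, 3 were called (Rtn4rl1, Pmepa1 and Spsb1). All 7 neuron genes were called higher in this step as well (list median 4.95, all genes -0.34), and their part in the Rtn4rl1 difference was not tested.

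Over the same ages Olfml3, Pmepa1 and Spsb1 were called higher in limbs Mac than in caudal pMac. Olfml3 went from 5.37, 5.46 and 5.37 in the caudal libraries to 11.83 and 10.09 in limbs, a difference of 5.56 ± 1.27 (adjusted p = 0.0195). Pmepa1 went from 5.37, 5.45 and 5.37 to 8.89 and 10.65, a difference of 4.37 ± 0.91 (adjusted p = 0.0126). Spsb1 was at 5.37 in all 3 caudal libraries and at 8.37 and 9.16 in limbs, a difference of 3.39 ± 0.73 (adjusted p = 0.0158) whose size depends on the floor. Of 10487 genes 3.3% were called higher in this step. The median difference of all genes was -0.25, and -0.12 after quantile normalization, under which the same count of 3 members was called. Sparc had 7.67, 7.86 and 8.61 before and 8.17 and 7.0 after, a difference of -0.46 ± 1.02 (adjusted p = 0.816). With the library set as a covariate none of the 3 passed (adjusted p = 0.074 to 0.111), and without either limbs library they did not pass the filter on low values. They passed that filter only through the limbs libraries, so the 3 calls describe those levels and are no separate support for a rise. With no filter the Olfml3 call ended (adjusted p = 0.0959, limma).

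The test of the difference between the brain and the caudal to limbs step called none of the 8 members tested (3.95% of 12202 genes). Sparc differed by 3.42 ± 1.42 (adjusted p = 0.296), Pmepa1 by -2.42 ± 1.21 (adjusted p = 0.423), Olfml3 by -2.03 ± 1.89 and Gal3st4 by -1.38 ± 1.86. Without brain Mac replicate 1 these values were 5.18, -1.93, 0.56 and 1.04 in the same order, so the sign of the last 2 rested on that library. Of the 482 genes called in the table, 0 were called without it.

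Within brain, 8 of the 9 genes had their highest level at P21, and the share of all genes that did so was not counted. The difference between P8 and P21 and the 2 embryonic ages E14.5 and E18.5 did not pass for any member. Sparc had 14.11 and 13.37 at E14.5, 12.31 and 12.66 at E18.5, 13.67 and 13.91 at P2, 14.33 and 14.97 at P8 and 16.64 and 16.05 at P21. Olfml3 had 13.07 and 12.39 at E14.5, 12.42 and 13.12 at E18.5, 12.71 and 13.32 at P2, 14.05 and 14.57 at P8 and 15.92 and 15.72 at P21. For both genes every P8 and P21 library lay above every E14.5 and E18.5 library. The differences were 2.32 ± 0.88 for Olfml3 (adjusted p = 0.312) and 2.38 ± 1.22 for Sparc (adjusted p = 0.56), in a comparison that called 0.897% of 11376 genes.

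The remaining differences with age in brain ran from 0.12 (Eml5) to 1.39 (Pmepa1). Havcr2 had 11.98 and 9.93 at E14.5, 9.31 and 11.30 at P8 and 13.17 and 12.38 at P21, and Spsb1 9.05 and 10.31 at E14.5, 7.21 and 9.73 at P8 and 12.59 and 10.37 at P21. For both genes 1 P8 library lay below both E14.5 libraries, and the P21 libraries were the highest. The mean of the 12 macrophage genes was also higher at P21, although none of the 12 was called with age. It was 12.76 to 12.95 at E14.5 and E18.5 and 14.67 and 14.71 at P21, and its part in the members' values was not tested. The mean of the astrocyte list was 5.93 to 6.48 at E14.5 and E18.5 and 7.70 to 9.44 at P8 and P21, and that of the oligodendrocyte list 5.37 to 7.0 and 6.95 to 9.12, and their part was not tested either. In bulk RNA fewer cells of a type and less RNA per cell cannot be told apart.

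Whether the age difference in brain differed from that in kidney, liver, lung and skin was tested as an interaction, which called none of the members (0.692% of 13729 genes). Olfml3 came nearest, with 3.68 ± 0.99 (adjusted p = 0.0784). Its age difference outside brain was -1.36 ± 0.48 (adjusted p = 0.0695), of the opposite sign to that in brain. Leaving out any 1 of 4 single libraries of kidney, liver or lung brought the Olfml3 interaction past the threshold (adjusted p = 0.0367 to 0.0448).

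**Figure D4:**
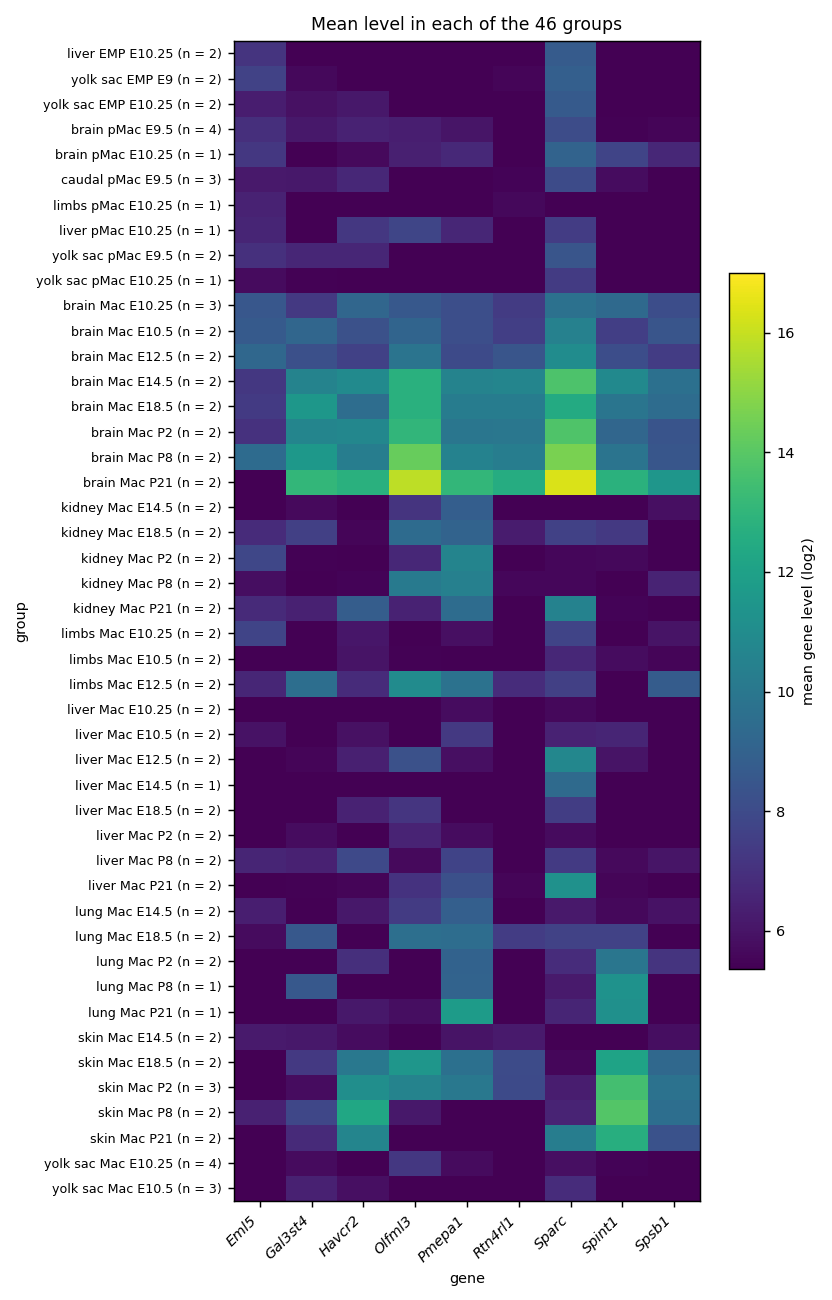
Mean log2 level of the 9 genes (columns) in each of the 46 groups (rows, with the number of libraries), from the floor (dark) upward. The brain Mac rows are raised in nearly all columns, limbs Mac E12.5 is raised for Gal3st4, Olfml3, Pmepa1 and Spsb1, and the skin rows are raised for Havcr2, Spint1 and Spsb1 from E18.5 to P21.

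Differences among the 4 other tissues of E14.5 to P21 were tested without any brain library, each tissue against the mean of the other 3. Havcr2, Spint1, Spsb1 and Rtn4rl1 were higher in skin. Spint1 ranged from 5.37 to 14.02 (median 12.98) over the 11 skin libraries, from 5.37 to 9.24 (median 5.37) over the 19 of kidney and liver and from 5.37 to 11.32 (median 9.66) over the 8 of lung. The skin difference of Spint1 was 5.0 ± 0.62 (adjusted p = 5.25e-07). Havcr2 ranged from 5.37 to 12.82 (median 10.49) in skin and from 5.37 to 9.91 (median 5.37) in the 27 kidney, liver and lung libraries, a difference of 3.91 ± 0.55 (adjusted p = 4.07e-06). Spsb1 ranged from 5.37 to 10.69 (median 9.28) in skin and from 5.37 to 8.90 (median 5.37) in the 27, a difference of 2.89 ± 0.41 (adjusted p = 3.75e-06). The ranges overlapped for all 3 genes, and the lowest skin libraries, those of E14.5, were at or near the floor. From E18.5 the lowest skin levels were 9.52 for Havcr2 and 7.81 for Spsb1, and both still overlapped the other tissues. For Spint1 the lowest was 11.72, above every kidney, liver and lung library. Leaving out E14.5 was a choice made after seeing the data, and the share of all genes without overlap was not counted.

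Rtn4rl1 differed by 1.12 ± 0.31 (adjusted p = 0.0148), a call that ended after quantile normalization (adjusted p = 0.0729) and without the 9 libraries with few detected transcripts (adjusted p = 0.0602). Without skin P2 replicate 2 its difference was 0.90, under the limit of 1. The 4 members called higher stand beside 6.09% of 11286 genes called higher in skin (9.38% in either direction). Of all genes called, 64.9% were higher, and 46.7% after quantile normalization, which moved the median difference of all genes from 0.32 to 0.12. Gal3st4, Olfml3, Pmepa1 and Sparc did not pass (0.62, 0.98, -1.10 and -0.45), and Eml5 was not tested.

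Age divided the skin libraries into 3 patterns. At E14.5 every member was at 7.07 or lower in both libraries. Havcr2, Spint1 and Spsb1 were present at all ages from E18.5, with Spint1 at 11.72 and 12.504 at E18.5, 13.79, 13.59 and 13.13 at P2, 14.02 and 13.72 at P8 and 12.98 and 12.34 at P21. Havcr2 had 9.52 and 10.49 at E18.5, 10.32, 11.99 and 11.02 at P2, 11.80 and 12.82 at P8 and 10.85 and 10.44 at P21. Spsb1 ranged from 7.81 to 10.69 over the same 9 libraries, so all 3 genes were well above the floor in each. Olfml3, Pmepa1 and Rtn4rl1 were present at E18.5 and P2 and nearly absent later. Olfml3 had 11.11 and 11.83 at E18.5 and 9.86, 11.07 and 10.84 at P2, then 6.90 and 5.37 at P8 and 5.43 and 5.37 at P21. Pmepa1 had 9.26 to 10.60 at E18.5 and P2 and at most 5.41 at P8 and P21. Rtn4rl1 had 7.31 to 9.14 at E18.5 and P2 and was not detected later. Sparc went the other way, with at most 8.20 up to P8 and 9.57 and 11.06 at P21. These age patterns in skin were described and not tested.

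**Figure D5:**
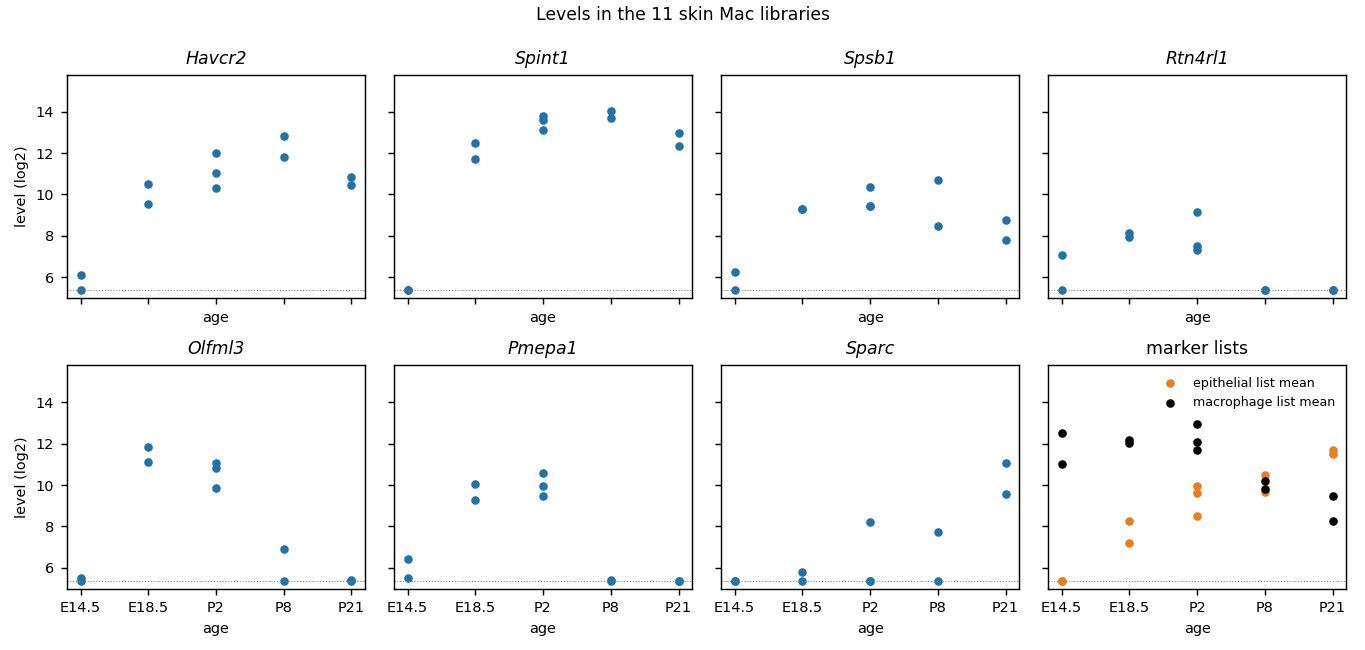
Log2 levels in the 11 skin Mac libraries by age for 7 of the genes, and the mean of the epithelial and macrophage marker lists, 1 point per library, with the floor as a dotted line. Havcr2, Spint1 and Spsb1 stay high from E18.5 to P21, Rtn4rl1, Olfml3 and Pmepa1 are high at E18.5 and P2 only, and the epithelial list goes from 5.37 at E14.5 to 11.69 in a P21 library.

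Epithelial markers were higher in skin, and their mean was higher at later ages. All 4 epithelial genes tested were higher in skin (Epcam by 5.47, Cdh1 by 4.45, Krt14 by 4.09 and Krt5 by 3.99), and Krt8 and Krt18 were at the floor in all 11 skin libraries. The mean of the 6 epithelial genes was at the floor in both E14.5 libraries, 7.19 and 8.28 at E18.5, 8.53 to 9.94 at P2, 9.67 and 10.48 at P8, and 11.69 and 11.51 at P21. Over the same ages the macrophage list mean was 11.03 and 12.52 at E14.5 and 8.27 and 9.45 at P21. St14, the protease that Spint1 inhibits, was also higher in skin, by 3.30. Mertk, a phagocytic receptor of macrophages, was lower (-4.17). It is a single gene of the 12 in the macrophage list, and the calls of the others in skin are not given here. Epcam and Cdh1 are also known from Langerhans cells, the macrophages of the epidermis, while Krt5 and Krt14 are keratins of its epithelial cells. The mean of the T and NK cell list was at most 5.52 at E14.5 and E18.5, 7.21 to 7.55 at P2, 5.37 and 8.57 at P8 and 5.37 and 8.02 at P21. That of the dendritic cell list was at most 6.06 at E14.5 and E18.5 and 6.03 to 7.20 later. The part of epithelial, lymphoid or dendritic cell RNA in the skin values of Spint1, Havcr2 and Spsb1 was not tested.

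The other tissue comparisons called few members. Spint1 was lower in kidney, with a difference of -2.70 ± 0.64 (adjusted p = 0.011; 1.32% of 11286 genes called lower), and in liver, with -3.59 ± 0.67 (adjusted p = 0.000208; 2.7% lower). Both contrasts hold skin in their reference, so the high skin values enter them. Spint1 also passed the filter on low values only through skin libraries, so these calls are no separate support for a difference. Spint1 was detected in 4 of 10 kidney and 2 of 9 liver libraries, and the kidney call ended without the libraries of few detected transcripts (adjusted p = 0.18). Lung had Spint1 at 10.51 and 9.38 at P2, 11.32 at P8 and 11.20 at P21, where all but 1 of these libraries had few detected transcripts. At E14.5 both lung libraries were at 5.86 or lower.

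Pmepa1 was lower in liver, with a difference of -2.37 ± 0.67 (adjusted p = 0.0215), and this call ended when any 1 of 5 liver libraries was left out (adjusted p = 0.0521 to 0.0661). It was detected in all 10 kidney libraries (7.65 to 11.18, median 10.04) and all 8 lung libraries (7.38 to 11.77, median 9.26), and in 5 of 9 liver libraries (5.37 to 10.39, median 5.56). Beside the liver calls of Spint1 and Pmepa1, all 4 erythroid genes tested were higher in liver. Of 11286 genes tested, 761 were called there in either direction, 59.9% of them higher. The erythroid mean was 10.05 to 14.63 in the 9 liver libraries, 5.54 to 12.36 in kidney, 5.89 to 11.28 in lung and 5.37 to 7.49 in skin, and its part in the calls was not tested. No member was called in lung, where 1.41% of genes were. No difference of Sparc passed in any of the 4 tissues, with values of -0.45 in skin to 1.07 in liver.

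Relatives and partners of the members were listed by family or pathway and not by how they moved, 57 genes of which 46 are in the table. In the late brain contrast that chose the members, 6 of the 31 tested were higher in brain and 2 lower, beside 5.82% of all genes higher and 8.6% called in either direction. Of these, 5 higher genes and 1 lower gene belong to the 12 tested genes of the TGF-beta pathway list. The receptor Tgfbr1 was higher by 2.44, the signal transducer Smad3 by 2.72, and the pathway's own inhibitors Smad7, Skil and Ldlrad4 by 1.69, 2.20 and 2.47. The secreted TGF-beta target Tgfbi was lower (-2.18), where the target gene Pmepa1 was higher. Olfml2b, a relative of Olfml3, was higher by 1.75, and Timd4, a phosphatidylserine receptor related to Havcr2, was lower (-2.87). These counts come from the contrast that chose the members and are descriptions.

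In the early contrast none of 26 tested relatives was called. At E12.5, 5 of 33 were higher in brain and 2 lower, among them Sparcl1 (2.36), Smoc1 (2.16), Eml1 (2.38) and Spsb4 (2.20), with Tgfbi lower (-3.57). Of all genes 5.31% were called higher there, and without brain replicate 1 none of these calls was left. In skin against the other non-brain tissues 1 of 28 was higher, St14, and Timd4 (-2.62) and the Sparc family member Fstl1 (-1.56) were lower. None of the 12 TGF-beta pathway genes tested in skin was called. All 15 microglia genes tested were higher in late brain (list median 4.21, median of all genes 0.18), and none of the 15 was called in the early contrast (list median 1.27, all genes -0.02).

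Over the 46 group means the members were alike to different degrees. The median Pearson correlation over their 36 pairs was 0.58, from -0.01 (Eml5 with Spint1) to 0.91 (Olfml3 with Rtn4rl1). These are descriptions of points that share libraries, floor and normalization, and part of the likeness follows from choosing genes high in the same brain groups. Havcr2 was most like Spsb1 (0.89) and Gal3st4 most like Rtn4rl1 (0.89). Among 12567 genes compared, those most like the mean of the members were Sall1 (0.85), Nav3 (0.83), Npnt (0.82), Camk2n1 (0.82) and Tmem119 (0.82). Pmepa1 was most like Ski (0.84), Sparc like Nav3 (0.82), Spint1 like Hvcn1 (0.84) and Eml5 like Crmp1 (0.68), the lowest of the members' best matches.

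Individual transcripts showed which isoforms carried the levels, as assigned by the authors' processing. In brain Mac of E14.5 to P21 the Sparc transcript ENSMUST00000108858 had the highest mean of the gene's 5, 13.42 ± 1.41 (SD, n = 10), and the Olfml3 transcript ENSMUST00000029440 had 13.64 ± 1.34. The 2 transcripts of Havcr2 were alike in brain, with 9.40 ± 2.0 for ENSMUST00000020668 and 9.65 ± 1.58 for ENSMUST00000109229. In the 9 skin libraries of E18.5 to P21 they were 10.84 ± 0.91 and 8.08 ± 1.58. The Spint1 transcript ENSMUST00000110817 had 6.11 ± 0.52 in brain and 9.51 ± 1.07 in those skin libraries, while ENSMUST00000028783 was the highest of the 4 in both tissues. These transcript differences between tissues were not tested.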

How the data were processed

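RNA of sorted EMP, pMac and Mac was measured in 93 libraries, assigned to 46 groups from the labels. The authors deposited 1 log2 value per Ensembl transcript and library, normalized by a method not given in the sources used here. That the logarithm has base 2 was inferred from the range (0.836 to 19.0). The submitters' processing notes name Bowtie 1.1.1, DESeq2 and mm10 but give no roles. The values hold no counts, so depth is unknown.

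The lowest values of the libraries form bands at 2.35 to 4.87, and values were raised to a common floor of 5.37, set 0.5 over the top of these bands. Of 37521 transcripts 36703 were matched to 14181 genes, and gene levels were formed by summing, in linear units, what each transcript had beyond the floor, adding the floor and taking log2. Offsets within the band divided the libraries into sets of 60 and 33, with all pMac in the smaller. Tests were made in R 4.3.3 by limma 3.58.1, its variance prior following the mean level, on genes that reached 6.37 in a number of libraries equal to the smallest group (2 or more). Calls needed a Benjamini-Hochberg adjusted p under 0.05 and a difference of at least 1. The scripts were tested on simulated data. Replicate numbers did not pair the samples.

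The members and gene lists were chosen with earlier results of these data known. The rule speaks of 10 genes, of which 9 are described and 1 is not reported here. The genes named are the 9 members, their listed relatives and markers, the 3 members nearest to and 3 genes just outside the threshold, and the genes most correlated over the 46 group means. Alternatives were other scalings, floors, filters, references, covariates and leaving out each library.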

Additional observations from a re-analysis of the deposited data

Results flagged for a closer look

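In groups of 4 or more libraries, 8 of 13 member values tested had a highest or lowest library far from the others by Dixon's criterion, which chance meets in about 1 of 20 groups. Most of these groups had all other libraries at the floor of 5.37, so that any single detection stands out. In brain pMac of E9.5 replicate 4 stood out for Gal3st4 (8.3), Pmepa1 (7.92) and Spsb1 (6.06), and replicate 3 for Spint1 (5.65). In yolk sac Mac of E10.25 replicate 2 stood out for Gal3st4 (6.74) and Pmepa1 (6.65), and replicate 4 for Sparc (7.32) and Spint1 (5.73).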

How the results depend on the processing

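Of 2670 values of members under alternatives, 2614 kept their call and direction or were uncalled in both settings. A call was lost by 27 values and gained by 29, and none of the called values reversed. Among the values uncalled in both settings, 77 of 2229 changed sign. The number of members called at E12.5 in brain was 2, and it was 1 after quantile normalization, 0 when the fit held E12.5 libraries only, 0 with limbs as the sole reference, and 0 to 1 when single libraries were left out. For the step from brain pMac to brain Mac it was 1, and it was 2 after quantile normalization, 2 with all 93 libraries in the fit, 2 with the replicate block, 2 with the library set as a covariate, and 0 to 3 when single libraries were left out. The step from caudal pMac to limbs Mac called 3, 0 with the library set as a covariate, and 0 to 3 with single libraries left out. The age difference of brain against other tissues called 0, 2 with all 93 libraries, and 0 to 1 with single libraries left out. Kidney called 1, 3 with all 93 libraries, 0 without libraries of few detected transcripts, and 1 to 2 with single libraries left out, where 2 came without liver P21 replicate 1 or liver P8 replicate 1. Lung called 0, and 3 with all 93 libraries. Liver called 2, and 1 to 3 with single libraries left out, and skin called 4, and 3 to 4. The cause was not tested.

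Calls over all genes moved more. At E12.5 there were 1012, 390 to 1014 under alternatives and 0 without brain replicate 1. The brain step had 1245, and 7 without brain Mac replicate 1. The caudal step had 708 (160 to 1183, and 82 to 1100 with single libraries left out). The difference of the brain from the caudal step had 482 (0 to 606), EMP to pMac 399 (2 with the set covariate, 1315 with no tissue covariate), and brain age 102 (37 to 234). The age difference between tissues had 95 (46 to 279), kidney 473 (192 to 1773), liver 761 (604 to 1650), lung 159 (0 to 1958) and skin 1059 (633 to 2279). Quantile normalization moved the higher share of calls from 62.3% to 72.3% at E12.5, from 73.5% to 59.9% in the brain step, from 83.3% to 67.1% with brain age, from 68.5% to 49.8% in kidney and from 34% to 55.5% in lung.

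Replicate numbers were not given as pairs, and deviations of same-numbered libraries were correlated above 0.1 in 0 of 6 pairs at E12.5, 3 of 7 among pMac of E9.5, 6 of 13 in the brain and caudal steps, 3 of 28 among EMP and pMac, and 6 of 442 among late Mac. The replicate block changed no count of members called other than that of the brain step, where Pmepa1 was added. References of limbs or liver alone, skin without E14.5 and all alternatives for the caudal step were chosen after seeing the data; without E14.5, skin differences were 6.04 (Spint1), 4.79 (Havcr2), 3.53 (Spsb1) and 1.16 (Rtn4rl1). The library set could not be used as a covariate for pMac of E9.5, which all lay in 1 set. Where leaving out a library left 1 in a group, it was assumed to vary like the other groups. Depth is unknown, and low levels are limited by the floor.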

Other observations

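Single libraries outside the brain held 1 member at a high level while their replicate did not. Sparc was 13.99 in kidney P21 replicate 1 and 7.05 in replicate 2, and 12.88 and 9.60 in the 2 liver libraries of that age. The pericyte list was 7.69 and 5.37 in the 2 kidney libraries and 7.59 and 6.77 in the 2 liver libraries, and the endothelial list was highest in the same libraries as Sparc. Eml5 was 10.28 in kidney P2 replicate 2, its highest level in any of the 93 libraries, and not detected in replicate 1. Spint1 was 9.24 in kidney E18.5 replicate 1 and 9.95 in lung E18.5 replicate 2, and not above 5.38 in the other library of either group. Havcr2 was 9.91 in liver P8 replicate 1 and 5.97 in replicate 2. In these libraries the T and NK cell list was 11.06 and 7.14 and the dendritic cell list 10.01 and 6.67, and their part in the Havcr2 values was not tested. Both kidney P2 libraries and both liver P21 libraries had few detected transcripts.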
